A study of Homo sapiens with 6 samples.

Results

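MicroRNA-342 is made from 1 hairpin that lies in an intron of EVL, and both of its mature arms were followed here in MIO-M1 cells and in the EV that these cells released. The pair consists of hsa-miR-342-3p and hsa-miR-342-5p, 2 of the 2576 mature miRNAs counted in each library. The pair was taken by name, but it had been selected with its measured levels, its EV to whole cell difference and its arm ratio in view. For that reason these 3 measures are given below as a description, with no test.

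MIO-M1 is an established human Müller glial cell line, which the labels give as wild type. The study sequenced small RNA of 3 whole cell samples (passage 22, passage 24 and passage 26) and of 3 samples of EV secreted by the line (passage 23, passage 25 and passage 27), and the replicates of a group are numbered 1 to 3 by passage. Cells of both groups were grown in DMEM with FCS, and for EV the washed cultures were moved to medium that the labels call serum-free and the methods vesicle-depleted, whereas no treatment of the whole cells themselves is told apart in the labels. Per the methods, whole cell RNA was isolated with a total RNA kit. EV were filtered, ultracentrifuged and treated with RNase A, and their RNA was isolated with an exosome RNA kit. A difference between the groups cannot be told apart from an effect of these steps. All 6 libraries come from 1 cell line, and no label says that they came from separately derived cultures. The paper describes the line as stable over passages and expected samples of different passages to serve as biological replicates. Any spread between replicates may still be technical in part or in full, which was not tested.

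Whole cell libraries held 396025 to 3990900 counts and EV libraries 1225541 to 3134561, with whole cell replicate 1 the shallowest. In replicate order, 586, 1058 and 811 miRNAs were detected in whole cells and 431, 427 and 329 in EV. EV replicate 3 thus had the fewest detected miRNAs, although it was the deepest EV library. The paper describes its last EV sample as distant from the other EV samples in principal component analysis. Of the 2576 miRNAs, 430 reached 5 CPM (reads of the miRNA scaled to a common library total) in at least 3 of the 6 libraries, and both arms of miR-342 were among them. Beside the labelled cell type, 8 miRNAs listed for Müller glia and retinal glia were read. As no other cell type was sequenced, their levels cannot tell Müller glia from other cells. All 8 passed the filter, and they summed to between 163234 and 179653 CPM in whole cell libraries and between 91776 and 116551 CPM in EV libraries. Of the whole cell sums, miR-125b-5p alone held 100534 to 115967 CPM. By fitted fold change, 4 of the 8 were higher in EV and 4 lower. The neuronal miR-124-3p had 0 counts in all 6 libraries.

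A miRNA gene is transcribed into a long RNA that folds into a hairpin, and Drosha and then Dicer cut the hairpin down to a short duplex of a 5p and a 3p arm. One strand of the duplex is loaded into an Argonaute protein, where bases 2 to 8, the seed, find the target mRNAs, while the other strand is usually degraded. A miRNA in an intron can be transcribed together with its host gene. EVL, the host of miR-342, is a member of the Ena/VASP family, which promotes the elongation of actin filaments, and miR-342-3p is best known from blood cells of the lymphoid lineage.

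The mature sequences are shown because both arms are read from the same precursor but share no seed. They are RefSeq sequences on GRCh38.p14, written 5′ to 3′ with the seed in capitals.
miR-342-5p: aGGGGUGCuaucugugauuga
miR-342-3p: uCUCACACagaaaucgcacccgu
The 5p arm has 21 bases, starts with A and lies at chr14:100109673-100109693 on the plus strand. The 3p arm has 23 bases, starts with U and lies at chr14:100109715-100109737. Of the 2370 mature miRNAs in the RefSeq table, 36.8% start with U and 27.6% with A. No other of these 2370 carries the seed of either arm, in a search that covered 2262 of the 2576 names in the count tables. The GC content was 52.2% in the 3p arm and 47.6% in the 5p arm, against a median of 50% over the 390 filtered miRNAs that were matched. Searched on the mature strand alone, neither arm holds GGAG, found in 15.7% of the 2370 mature sequences, or CCCU, found in 11.9%.

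The precursor is shown to place the arms, which are in capitals.
MIR342: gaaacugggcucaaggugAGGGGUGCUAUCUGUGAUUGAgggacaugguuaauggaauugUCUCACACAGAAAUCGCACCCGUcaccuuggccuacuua
It spans 99 bases at chr14:100109655-100109753, with the 5p arm at positions 19 to 39 and the 3p arm at positions 61 to 83. RNAfold gave a minimum free energy of -47.7 kcal/mol, with 16 base pairs between the arms. In GENCODE 29, EVL lies on the plus strand of chromosome 14, with start 99971449 and end 100144236. All 8 EVL transcripts that span the hairpin have it in an intron and none in an exon. In EVL-201 it lies in intron 3, from 100097659 to 100123538, at 11996 bases after the preceding exon.

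The 3p arm was among the most abundant miRNAs of every library. It had 8538, 162832 and 54424 counts in whole cells and 32524, 119963 and 145015 counts in EV, which came to 21559, 40801 and 43465 CPM and to 26538, 58845 and 46263 CPM. The lowest library of each group was replicate 1, the highest whole cell value lay above the lowest EV value, and the groups overlapped. As a share of the library total, miR-342-3p took 3.53% ± 1.20 in whole cells and 4.39% ± 1.63 in EV (SD, n = 3 each). It ranked between 5 and 11 in the whole cell libraries and between 4 and 8 in the EV libraries. In CPM, the mean was 35275 ± 11953 in whole cells and 43882 ± 16284 in EV, a ratio of 1.24 that is smaller than the 2.02-fold range within the whole cell group and the 2.22-fold range within EV.

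The 5p arm was present in every library but at a much lower level. It had 138, 1326 and 384 counts in whole cells and 137, 213 and 725 counts in EV. Scaled to the library total, whole cells held 348, 332 and 307 CPM, and EV held 112, 104 and 231 CPM. All 3 EV values lay below all 3 whole cell values, although EV replicate 3 stood apart from the other EV libraries at 70.3% of the whole cell mean, where they were at 34.0% and 31.7%. EV replicate 3 was also the library with the fewest detected miRNAs. The mean was 329 ± 21.1 CPM in whole cells and 149 ± 71.2 CPM in EV (SD, n = 3 each), 2.21-fold higher in whole cells. In CPM on library totals, the lowest whole cell library was 1.33-fold above the highest EV library. Of the 430 filtered miRNAs, 120 (27.9%) likewise had non-overlapping CPM with the EV libraries lower, a share given as background and from which nothing is read about the 5p arm.

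**Figure D1:**
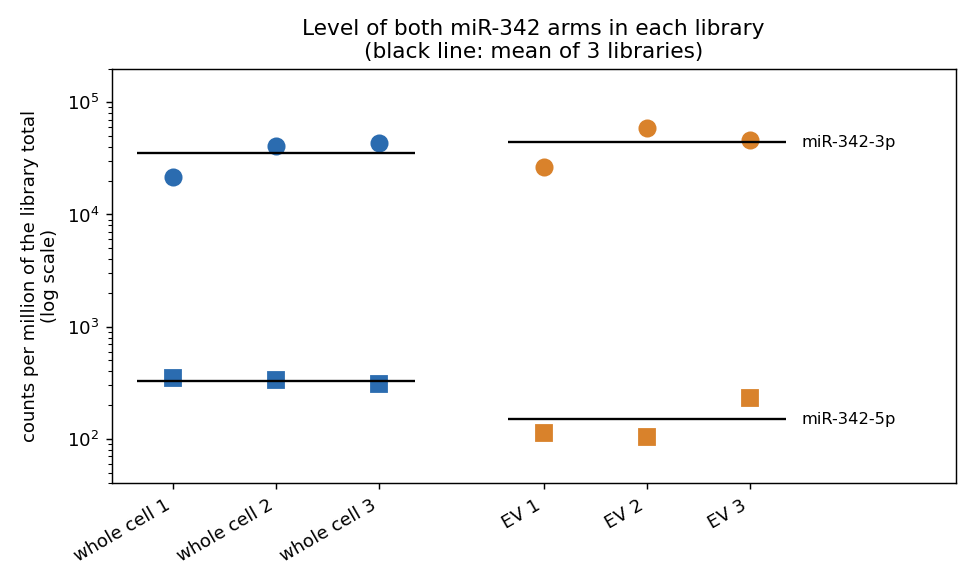
CPM of miR-342-3p (circles) and miR-342-5p (squares) in each of the 6 libraries on a log axis, whole cells in blue and EV in orange, with black lines for the mean of 3 libraries. The 3p arm overlaps between the groups, while the 5p arm lies at 307 CPM or more in whole cells and at 231 CPM or less in EV.

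The values were also read at equal depth. With each library thinned to the 396025 counts of the shallowest, the 5p arm kept 138, 144 and 114 counts in whole cells and 37, 40 and 83 counts in EV. The 3p arm then had 8538, 16341 and 17158 counts in whole cells and 10550, 23446 and 18376 in EV.

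The same contrast was fitted across all 430 filtered miRNAs with edgeR's quasi-likelihood model. The log2 fold change, EV over whole cells, was 0.23 (SE 0.46) for miR-342-3p and -1.10 (SE 0.56) for miR-342-5p, against a median of -0.23 over the 430 miRNAs. Ordered from the lowest fold change, the 5p arm stood at 147 and the 3p arm at 251 of 430. A call needed a Benjamini-Hochberg adjusted p under 0.01 together with a log2 change of 2.5 or more in either direction, and 25 of the 430 (5.81%) were called, 19 higher and 6 lower in EV. That split was 20 and 18 with upper-quartile factors, 14 and 10 with RLE factors, 21 and 16 on library totals and 42 and 30 with DESeq2, and edgeR made 0 calls without whole cell replicate 3 (121 miRNAs at an unadjusted p below 0.05) or without EV replicate 2 (169 miRNAs). Neither arm was called, and since the pair was selected on this contrast nothing more is read from that. Without whole cell replicate 1, in which the 3p arm was lowest, its log2 fold change was -0.22. The direction for the 3p arm thus turned with that library. Without EV replicate 3 the log2 fold change of the 5p arm was -1.74, more than 1.5 times its value with all libraries, and the 5p arm stayed below whole cells with any 1 library left out.

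**Figure D2:**
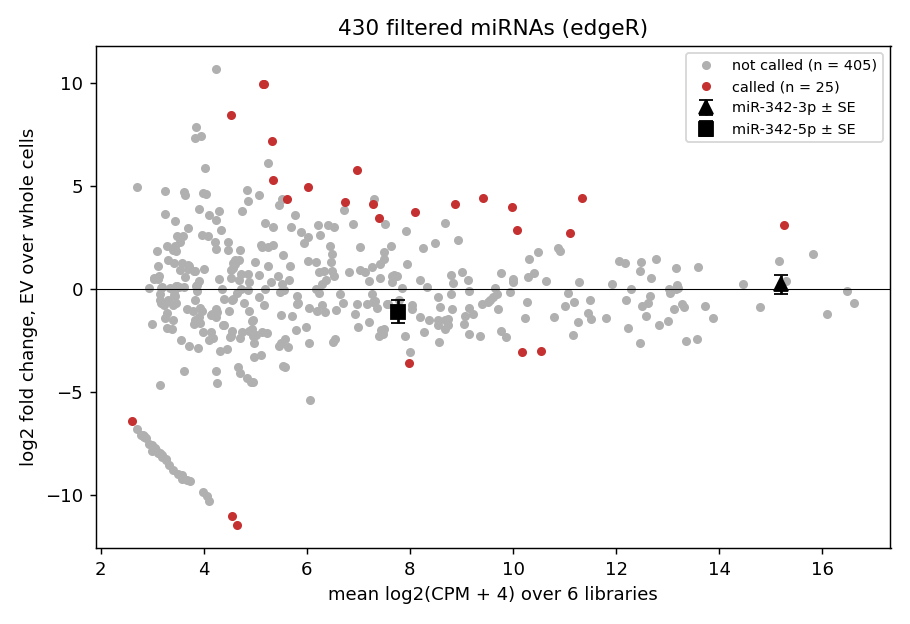
Log2 fold change of EV over whole cells (edgeR) against the mean log2(CPM + 4) over 6 libraries for 430 miRNAs, with the 25 called miRNAs in red and both miR-342 arms in black with their SE. The 3p arm lies at the abundant end near 0 and the 5p arm at -1.10, and the diagonal row of points at the lower left holds miRNAs at 0 counts in all EV libraries, whose fitted fold changes depend on the prior count and are no bound.

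By mean log2(CPM + 4), scaled by TMM, miR-342-3p was at place 6 of 430 in whole cells (15.04 ± 0.79) and at place 8 in EV (15.35 ± 0.44). Its neighbours in whole cells were let-7i-5p above it (15.12 ± 0.19), a let-7 family member, and miR-16-5p below it (14.97 ± 0.11), a miRNA that restrains the cell cycle. In EV they were miR-125b-5p (15.44 ± 0.83), which is abundant in glia, and let-7c-5p (14.48 ± 0.92). None of these 4 neighbours was separated from miR-342-3p, since the libraries overlapped in each case.

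On the same log2 scale miR-342-5p was at place 114 in whole cells (8.38 ± 0.16) and at place 159 in EV (7.17 ± 0.75). It stood between miR-132-3p (8.43 ± 0.34), a CREB-induced miRNA of the nervous system, and miR-125b-1-3p (8.32 ± 0.34) in whole cells. In EV it stood between miR-149-5p (7.21 ± 0.68) and miR-154-5p (7.17 ± 0.83). These 4 miRNAs also overlapped with it across libraries.

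The arms were far from equal in each library. The ratio of 3p to 5p counts was 61.9, 123 and 142 in whole cells and 237, 563 and 200 in EV. All EV libraries had a higher ratio than any whole cell library, with EV replicate 2 highest and whole cell replicate 1 lowest. The mean log2 ratio was 6.68 ± 0.64 in whole cells and 8.22 ± 0.80 in EV (SD, n = 3 each), a difference of 1.54. With EV replicate 2 left out the difference was 1.09, and with EV replicate 3 left out it was 1.83.

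Written as a share, the 5p arm made up 1.59%, 0.808% and 0.701% of the counts of both arms in whole cells. In EV it made up 0.419%, 0.177% and 0.497%. The exact 95% binomial intervals were 0.633% to 0.774% in whole cell replicate 3 and 0.462% to 0.535% in EV replicate 3, the closest pair of libraries across the groups, which differed by 1.41-fold. These intervals cover counting error only, and the methods do not say whether reads copied from 1 molecule were counted separately. The mean share was 1.03% ± 0.486 in whole cells and 0.365% ± 0.167 in EV. Between the groups the 3p arm overlapped and the 5p arm did not, so the gap in the ratio came with a lower 5p level in EV.

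**Figure D3:**
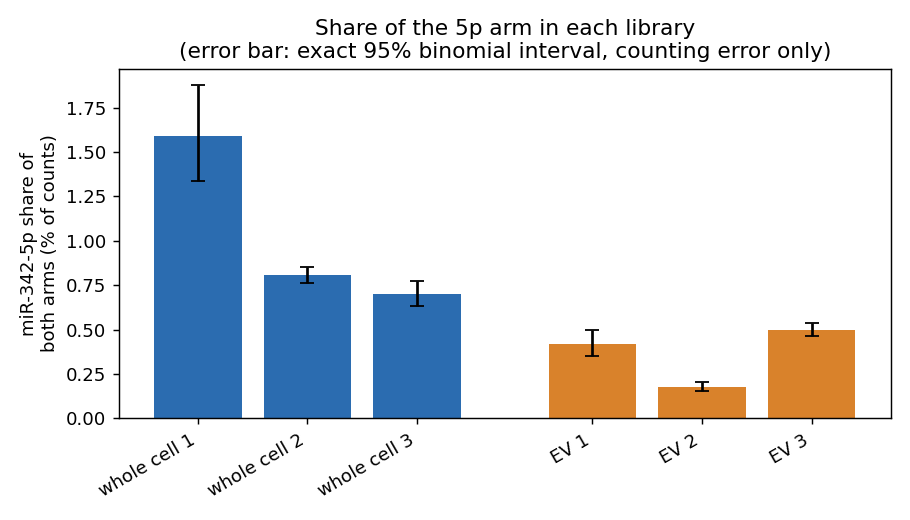
Share of miR-342-5p in the summed counts of both arms, in percent, one bar per library, with exact 95% binomial intervals that cover counting error only. The whole cell bars run from 0.701% to 1.59% and the EV bars from 0.177% to 0.497%.

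To see how far other hairpins did the same, the ratio of the arms was computed for the 110 hairpins with both arms past the filter. The ratio did not overlap between EV and whole cells in 51 of the 110 (46.4%). The less abundant arm had a lower share in every EV library in 21 of them (19.1%), miR-342 included, and a higher share in every EV library in 30. As the arm ratio was part of how the pair was selected, these shares are background only. The shift of 1.54 toward the more abundant arm placed miR-342 at 46 of 110, against a median shift of 0.59 with quartiles of -1.99 and 3.22. In 83 of the 110 hairpins an arm fell below 10 counts in at least 1 library. In 4 of the 110 an arm is annotated at more than 1 locus, so its counts may come from more than 1 hairpin.

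When both arms were required to have at least 10 counts in every library, 27 hairpins remained, and the direction was read after the values had been seen. This minimum drops by construction the hairpins whose less abundant arm falls to few or 0 counts in EV, so the 27 give no estimate of how common that direction is, and nothing about miR-342 is read from their counts. Among them the less abundant arm had a lower share in every EV library in 2 hairpins (7.41%), miR-342 and miR-21. In 12 its share was higher in every EV library, and in 13 the groups overlapped. Of miR-21, a miRNA abundant in proliferating cells, the 3p arm made up 1.11%, 2.85% and 3.07% in whole cells and 0.0957%, 0.117% and 0.179% in EV. The opposite course was seen for miR-181a-3p. Of its summed counts with miR-181a-5p it made up 0.501%, 0.560% and 0.382% in whole cells and 11.6%, 4.04% and 16.1% in EV. That is not the share of a single hairpin, as miR-181a-5p is also made with miR-181a-2-3p, which was not counted in. The log2 fold change was 2.06 for miR-181a-3p and -1.41 for miR-181a-2-3p. For miR-299, a miRNA of the imprinted cluster downstream on chromosome 14, the 3p share went from 4.92%, 4.42% and 4.26% in whole cells to 67.2%, 56.3% and 83.7% in EV.

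**Figure D4:**
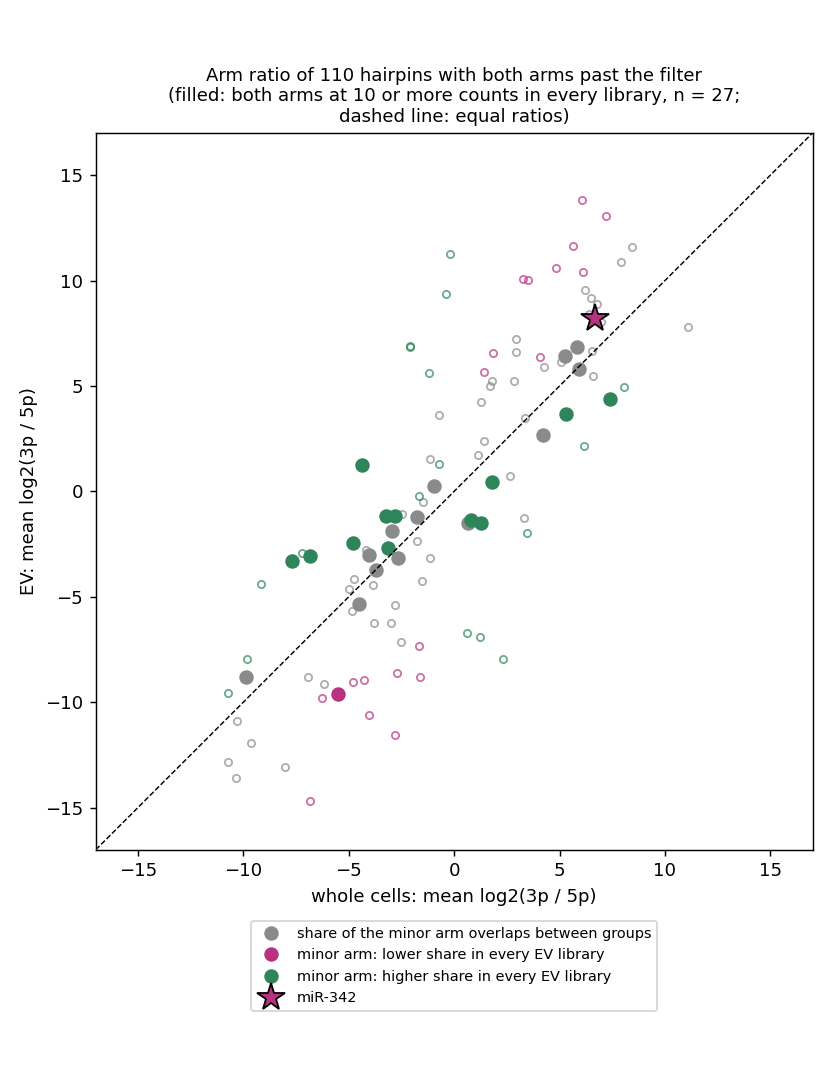
Mean log2 ratio of the 3p to the 5p arm in EV against whole cells for 110 hairpins, with the 27 whose arms both have at least 10 counts in every library filled and the others open, and colours for the less abundant arm's share. miR-342 (star) lies above the dashed line of equal ratios, at 6.68 in whole cells and 8.22 in EV, where the filled points leave out by construction hairpins whose less abundant arm was nearly absent from EV.

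Ordered by how unequal the arms were, miR-342 was at place 23 of the 110 hairpins in whole cells and at place 34 in EV. The 3 hairpins of the 110 whose whole cell ratio lay nearest to it were miR-376c, miR-323a and miR-28. Their mean log2 ratio went from 6.60 in whole cells to 5.46 in EV for miR-376c, from 6.77 to 8.89 for miR-323a, and from 6.54 to 6.67 for miR-28. The ratio of each of the 3 overlapped between the groups. Their less abundant arms were also scarcer than miR-342-5p, as for miR-376c-5p with 0, 4 and 2 counts in whole cells.

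With both groups pooled, the arms did not vary together over the libraries. Over the 6 libraries Pearson's r between them was -0.0741 on the log2(CPM + 4) scale. This and the following r values are descriptions over 6 libraries that share their group structure and scaling. Scaled by TMM, both arms were lowest in replicate 1 of the whole cells, while on library totals the 5p arm was highest there. The pattern most like miR-342-3p was that of miR-191-5p (r = 0.966), from an intron of DALRD3. It had 1939, 49082 and 14981 counts in whole cells and 6674, 34927 and 32224 in EV, and like miR-342-3p it was lowest in replicate 1 of both groups in CPM. It was followed by miR-134-5p (r = 0.963), miR-574-3p (0.867), miR-7706 (0.867) and miR-486-5p (0.860).

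The pattern most like miR-342-5p was that of miR-21-3p (r = 0.967), itself the less abundant arm of its hairpin. It had 273, 311 and 272 CPM in whole cells and 121, 144 and 189 CPM in EV, so that EV replicate 3 was again the highest EV library. The next were miR-767-3p (r = 0.962), miR-455-3p (0.952), miR-23b-5p (0.950) and miR-323a-5p (0.942). Of these, miR-767-3p, miR-23b-5p and miR-323a-5p had 0 counts in at least 1 EV library.

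A set of 82 arms of other miRNAs in introns of protein-coding genes was read for comparison. Of these, 56 passed the filter, 4 were called higher in EV and 1 lower, and their median log2 fold change was -0.43. Over all 430 miRNAs 5.81% were called, 19 higher and 6 lower, and the median was -0.23. The called lower one was miR-15b-5p, from an intron of SMC4, whose log2 fold change was -3.0 with an SE of 0.34 (edgeR adjusted p = 0.00308). Among the called higher ones, miR-335-5p, from an intron of MEST, had 0, 2 and 0 counts in whole cells and 105, 1401 and 1357 in EV. miR-590-3p, from an intron of EIF4H, had 2, 8 and 0 counts in whole cells and 476, 558 and 571 in EV. Neither would have passed the filter on its whole cell libraries, nor would miR-126-5p, which was also called higher. Their calls are thus no support for a difference of the set. Of the uncalled ones, miR-589-5p had a log2 fold change of -2.81, miR-107 of -2.26 and miR-582-3p of 4.36. These were named for large fold changes among the members of the set with at least 1000 counts in all. Other members with fewer counts had larger changes, down to -9.23. Against the median of the set of -0.43, the 3p arm of miR-342 lay higher at 0.23 and the 5p arm lower at -1.10.

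The tables name no genome build, and their coordinates differ from those of GRCh38, so distances on chromosome 14 are those of the tables. The entries nearest to miR-342 held few counts. miR-151b, on the opposite strand and 217 bases below, had 3, 2 and 1 counts in whole cells and 0 in each EV library. The next below was miR-3173-5p, at 4971690 bases, which was counted 5, 69 and 15 times in whole cells and 0 times in each EV library. Above, miR-6764-5p had 0, 4 and 0 counts in whole cells and 0 in each EV library, at a distance of 167624 bases, and miR-6764-3p, at 167659 bases, had 0 counts in all 6 libraries.

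Entries annotated at several loci were left out of the neighbours, such as miR-376a-3p (log2 fold change 4.16, called) and miR-329-3p (-0.52, not called). Within 2 Mb of miR-342, 96 other entries with a single locus were listed, most of them in the large imprinted miRNA cluster between DLK1 and DIO3. Of these, 71 passed the filter, 4 were called higher in EV and 2 lower, and the median log2 fold change was -0.20, beside 5.81% called and a median of -0.23 over all 430 miRNAs. The called lower ones were miR-299-5p (-3.58) and miR-493-5p (-3.05), and miR-127-3p had -2.43 without being called. Called higher with the largest fold changes were miR-136-3p (4.95), miR-411-5p (4.40) and miR-889-3p (4.24). These neighbours thus spread to both sides of the miR-342 arms.

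**Figure D5:**
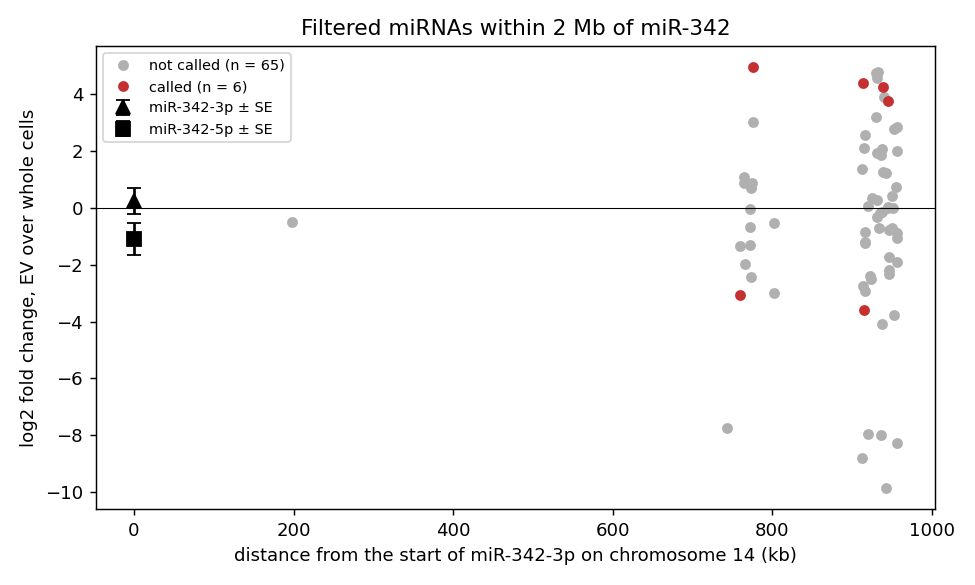
Log2 fold change of EV over whole cells (edgeR) against the distance in kb from the start of miR-342-3p for the 71 filtered single-locus neighbours. The 6 called miRNAs are in red and both miR-342 arms in black with their SE. The neighbours lie on both sides of 0 and of the miR-342 arms, and the values lowest on the axis belong to miRNAs at 0 counts in all EV libraries and are no bound.

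Since miR-342-3p is known from blood cells, 8 miRNAs of blood cells were read beside it. In whole cells 4 of the 8 (miR-451a, miR-144-5p, miR-144-3p and miR-142-5p) had 0 counts in every library, and miR-142-3p, a defining miRNA of haematopoietic cells, had 0, 0 and 1 counts. The summed level of the 8 was 164 to 1163 CPM in whole cells and 1610 to 2312 CPM in EV. miR-486-5p, abundant in red cells, carried the whole cell sum, as the other 7 summed to at most 1.60 CPM in whole cells, against 413 to 600 CPM in EV. In EV miR-142-3p had 331, 878 and 680 counts and was called higher (edgeR adjusted p = 0.00371), the 1 of the 8 that was called, among 3 that passed the filter, where 5.81% of all filtered miRNAs were called. It passed the filter through the EV libraries alone, so its call is no support for a difference of the list. The liver miRNA miR-122-5p had 3, 33 and 14 counts in whole cells and 245, 186 and 529 in EV. Of 5 epithelial miRNAs, 4 passed the filter and none was called by edgeR, with a summed level of 55.6 to 96.0 CPM in whole cells and 98.3 to 197 CPM in EV. Of the blood list, miR-486-5p was at 164, 875 and 1161 CPM in whole cells, and its pattern was among the 5 most like that of miR-342-3p. The part of blood miRNAs in the values of either arm, in whole cells or in EV, was not tested.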

How the data were processed

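Small RNA libraries of 3 whole cell and 3 EV samples of MIO-M1 were analysed, grouped by the fraction in their labels. The authors trimmed adapters, aligned reads to miRBase and deposited raw counts of reads per mature miRNA, without normalization. Per the file headers, Bowtie 1 alignments to miRBase release 20 were counted with featureCounts 1.5.0-p1 at strand setting 1, whereas the methods name Bowtie2 and another miRBase release. The genome build is not given in the sources used here.

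From these counts, CPM (counts scaled to a library total of 1000000) was taken on the total of each library. The miRNAs that reached 5 CPM in 3 or more libraries were scaled by TMM and fitted with edgeR 4.0.16 in R 4.3.3 (quasi-likelihood test, Benjamini-Hochberg adjustment). Log2 levels used a pseudocount of 4 and arm ratios one of 0.5. The edgeR step was tested on simulated data with changes far larger than those of the miR-342 arms. That test therefore says nothing about finding changes of their size. Hairpins were folded with RNAfold 2.7.2. Random steps used the seed 1. No library was a copy of another, with a smallest chi-square per degree of freedom of 41.9 between libraries. Depth limits a count of 0 to at most 3 counts, 7.58 CPM in the shallowest library.

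Of the 2576 names, 2262 were matched to RefSeq sequences. Named miRNAs were the arms, the 5 miRNAs most correlated with each, their neighbours in level and on chromosome 14, the 3 hairpins nearest in arm ratio, and from each list the members with at least 1000 counts in all and the largest fold change, at most 3 in each direction. Others, such as those singled out among the 27 hairpins and the marker miRNAs at or near 0, were named after their values were seen. The members and lists were chosen with earlier results of these data known. Alternatives covered the tool, the scaling, the filter, the thresholds, the pseudocounts, thinning and leaving out each library.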

Additional observations from a re-analysis of the deposited data

How the results depend on the processing

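No paired analysis was possible because the labels give passages, which the groups do not share, and no replicate numbers, and neighbouring passages were not taken as pairs. Under the other tools, scalings, filters and thinning, the log2 fold change ran from 0.04 to 0.32 for miR-342-3p and from -1.32 to -1.01 for miR-342-5p, and with each library left out from -0.22 to 0.37 and from -1.74 to -0.95. The -1.74 was reached without EV replicate 3, whose 5p level was the highest of EV. The absolute log2 fold change of either arm was below 2.5 in each of these. The EV minus whole cell difference in the arm log2 ratio ran from 1.18 to 1.70, and from 1.09 to 1.83 with each library left out. The count of called miRNAs was 25 and changed to 72 with DESeq2, 38 with upper-quartile factors, 45 without a filter, 93 at an adjusted p below 0.05 with the same fold limit and 123 without a fold limit, and stayed between 24 and 37 under 4 others. With each library left out it ran from 0 to 31. It was 16, 7 and 0 without whole cell replicates 1, 2 and 3, and 11 and 0 without EV replicates 1 and 2. Each of these edgeR fits had fewer samples. Of the fits with 0 calls, the one without whole cell replicate 3 had 121 miRNAs at an unadjusted p below 0.05 and the one without EV replicate 2 had 169. DESeq2 was not run without a library. The count of hairpins whose arm ratio did not overlap was 51 of 110, 14 of 27 with at least 10 counts in every library, and 48 with 4 counts added to each arm. With each library left out, an alternative chosen after seeing the data, it ran from 51 to 67. In each of these settings miR-342-5p had a lower share of its hairpin in every EV library. Depth limits the 5p arm most, with 137 counts in replicate 1 of EV and 138 in that of whole cells.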
